A study of Mus musculus with 6 samples.

Results

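The Notch genes described here are 10 of the 24421 genes in the deposited table: the receptor genes Notch1, Notch2, Notch3 and Notch4, the ligand genes Jag1 and Jag2, and the target genes Hes1, Hey1, Hey2 and Heyl. They were chosen by name as parts of 1 signalling pathway, and all 10 were found. They were measured in 3T3-L1, a fibroblast line from mouse embryos that serves as a preadipocyte model. The comparison set Ube3d knockout cells (KO, 3 libraries) against wild-type cells (WT, 3 libraries). Both genotypes were undifferentiated and in log-phase growth in high-glucose medium with serum, and were kept below full confluence. The sources used here do not give the deleted part of Ube3d or the number of clones behind the KO libraries, so a difference between the genotypes and a difference between clones cannot be told apart.

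Notch receptors are single-pass membrane proteins that are bound by Jagged or Delta-like ligands on a neighbouring cell. Binding leads to cleavage by an ADAM protease and then by gamma-secretase, and the freed intracellular domain enters the nucleus, where it joins the DNA-binding protein RBPJ and a Mastermind coactivator. Genes of the HES and HEY families, which encode basic helix-loop-helix repressors, are the best known targets of that complex. In preadipocytes, Notch signalling and HES1 are known as modulators of fat cell formation, and DLK1 (Pref-1), a ligand-like protein of the same family, is known for holding it back.

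The summed gene counts lay between 25267434 and 28042970 in the KO libraries and between 23767181 and 29389480 in the WT libraries. Ube3d, listed under its older symbol Ube2cbp, had 56, 43 and 53 counts in KO libraries and 145, 229 and 173 counts in WT libraries (log2 fold change −1.86, SE 0.15). All 8 fibroblast markers were detected, 6 of them called lower and 1 higher in KO. Of all tested genes, 31.2% were called lower and 30.3% higher. The 8 markers summed to 9315 to 9439 CPM (counts scaled to library size) in KO and 11375 to 11449 CPM in WT. Among markers of other cell types, the endothelial list summed to 1.46 to 2.54 CPM in KO and 0.589 to 1.08 CPM in WT, and the mural (smooth muscle and pericyte) list to 2.28 to 3.49 CPM in KO and 2.27 to 3.20 CPM in WT. The ribosomal RNA precursor gene Rn45s took 9.68% to 10.2% of counts in KO and 7.28% to 8.91% in WT.

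RefSeq promoter windows (GRCm38.p6, 250 bases before to 50 bases after the gene start) were at hand for 7 members, namely the 4 receptors, both ligands and Hey2. Of these, 3 are shown, without the transcribed bases: those of the most abundant receptor and ligand, which differed between the genotypes, and that of Hey2, a target with 0 counts. Capitals mark matches on either strand to TGGGAA, the core bound by RBPJ, to the E-box CANNTG of helix-loop-helix proteins, and to the N-box CACNAG of HES proteins. The windows are chr3:98013288-98013537 on the plus strand for Notch2, chr2:137116521-137116770 on the minus strand for Jag1, and chr10:30842784-30843033 on the minus strand for Hey2, each written 5′ to 3′.
Notch2: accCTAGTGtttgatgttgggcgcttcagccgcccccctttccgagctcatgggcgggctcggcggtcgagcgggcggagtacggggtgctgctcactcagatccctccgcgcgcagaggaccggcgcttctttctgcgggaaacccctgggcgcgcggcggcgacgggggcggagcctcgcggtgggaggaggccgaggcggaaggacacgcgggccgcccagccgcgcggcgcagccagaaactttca
Jag1: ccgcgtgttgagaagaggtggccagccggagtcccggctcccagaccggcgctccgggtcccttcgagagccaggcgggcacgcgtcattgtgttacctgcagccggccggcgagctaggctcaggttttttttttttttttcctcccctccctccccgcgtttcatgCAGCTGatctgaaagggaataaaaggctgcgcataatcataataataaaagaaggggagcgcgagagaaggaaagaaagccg
Hey2: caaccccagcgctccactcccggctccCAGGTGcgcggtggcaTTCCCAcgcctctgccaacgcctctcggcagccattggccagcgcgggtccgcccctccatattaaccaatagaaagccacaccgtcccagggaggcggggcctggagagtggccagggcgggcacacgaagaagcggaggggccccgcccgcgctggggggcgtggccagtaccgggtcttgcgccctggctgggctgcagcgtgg

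Of the 7 windows, read over their full length, Hey2 alone held TGGGAA. It had a minus-strand match starting 207 bases before the gene start and a plus-strand match that begins 3 bases before the start and runs past the printed end. Both extend to the longer GTGGGAA, which contains TGGGAA. Over all 32851 RefSeq promoter windows of this length, 25.6% held TGGGAA and 6.38% held GTGGGAA. The E-box was found in the windows of Jag1, Notch4 and Hey2 (72.3% of all windows), and the N-box in those of Notch1, Notch2 and Notch3 (42.5% of all windows). The 250 bases before the start held 34 CpG dinucleotides for Notch2, 20 for Jag1 and 22 for Hey2, against a median of 6 over all windows. For the members not shown it was 54 for Jag2, 17 for Notch3, 16 for Notch1 and 4 for Notch4. These matches describe the letters only.

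The 10 genes differed widely in level. Levels are given as TPM, that is, counts per kilobase of deposited exon length scaled to the same total in every library, so that genes of different length can be set side by side. Notch2 was the highest in both genotypes, at 53.0 ± 1.15 TPM in KO and 42.6 ± 1.09 TPM in WT (SD, n = 3 each), above 75.6% of tested genes in KO and 70.2% in WT. Hes1 followed at 19.5 ± 2.51 TPM in KO and 22.03 ± 1.03 TPM in WT, and then Jag1 at 4.598 ± 0.220 TPM in KO and 7.76 ± 0.475 TPM in WT. In KO the order went on with Notch1, Notch4, Jag2, Hey1 and Notch3, and the libraries of the neighbours Jag2 and Hey1 overlapped. In WT it went on with Hey1, Notch1, Notch4, Notch3 and Jag2, and the pairs Hey1 and Notch1, and Notch3 and Jag2, overlapped. Hey1 thus stood beside Notch1 in WT and beside Jag2 in KO.

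**Figure D1:**
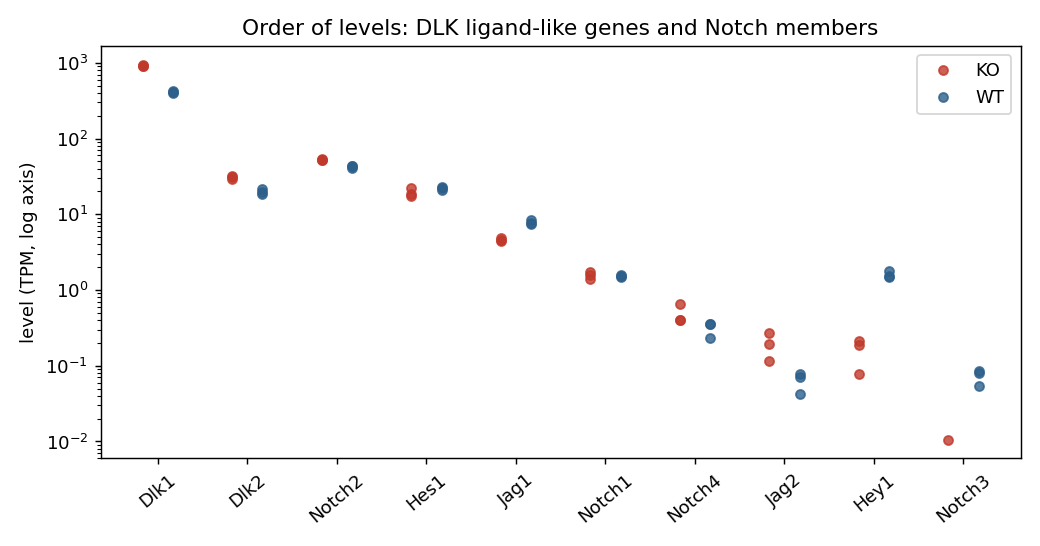
Level in TPM (log axis) of the 8 Notch members with counts, and of the ligand-like genes Dlk1 and Dlk2, in each KO library (red) and WT library (blue). Points at 0 are not drawn, which leaves out 2 KO libraries of Notch3. Members run down from Notch2 at 53.0 TPM in KO to Notch3, and Hey1 stands apart by genotype, at 0.160 TPM in KO and 1.595 TPM in WT.

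Of the 10 members, 6 had enough counts to be tested, 2 had few counts and 2 had none. Among the 6, 1 was called higher in KO (Notch2), 3 were called lower (Jag1, Hes1 and Hey1) and 2 were not called (edgeR quasi-likelihood test, adjusted p under 0.05). Over all 12947 tested genes, 61.4% were called, 30.3% higher and 31.2% lower. The libraries of the genotypes did not overlap for 4 of the 6 tested members, and for 63.8% of all tested genes. The members' shares are therefore read against a table in which most genes differ. Hey1 passed the count filter only through its WT libraries.

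**Figure D2:**
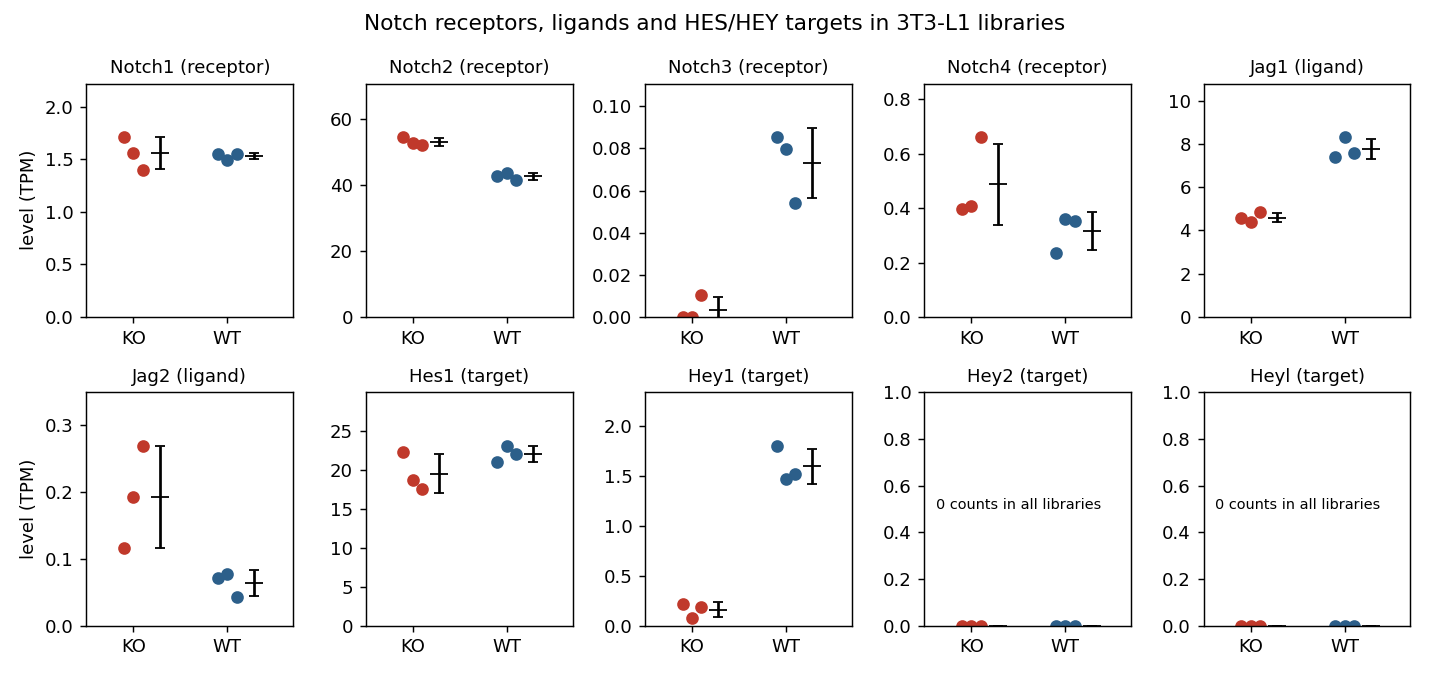
Level in TPM of each of the 10 Notch members in KO (red) and WT (blue) libraries, with the mean and SD beside the points (n = 3 each) and a linear axis from 0 in each panel. KO libraries lie above WT libraries for Notch2, Notch4 and Jag2 and below them for Notch3, Jag1 and Hey1, overlap for Notch1 and Hes1, and have 0 counts for Hey2 and Heyl.

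Among the receptors, Notch2 was slightly higher in KO. Notch2 (chr3:98013538-98150367, plus strand, 34 exons) had 6089, 6387 and 6537 counts in KO libraries, or 54.3, 52.7 and 52.1 TPM, against 4647, 5794 and 5072 counts in WT libraries, or 42.8, 43.6 and 41.4 TPM. All KO libraries lay above all WT libraries. The rise was 1.21-fold (log2 0.28, SE 0.03, edgeR adjusted p = 1.65e-12). Chromosome 3 as a whole was higher in KO, with a median log2 change of 0.30 over 643 tested genes and 70.0% of them called higher, so that Notch2 lay 0.026 below the median of its chromosome on the log2 scale. Notch2 made up 96.2% to 96.4% of the summed TPM of the 4 receptor genes in KO and 95.5% to 95.8% in WT.

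Notch1, the founding receptor of the family, did not differ beyond the spread between libraries. Notch1 (chr2:26457902-26503822, minus strand) had 1.71, 1.56 and 1.40 TPM in KO libraries and 1.55, 1.50 and 1.56 TPM in WT libraries. The WT libraries lay within the range of the KO libraries. The log2 fold change was −0.02 (edgeR adjusted p = 0.886), with an interval of 1.96 SE from −0.24 to 0.20. The median of chromosome 2, whose genes were lower in general, was −0.24 over 1024 tested genes. The ratio of Notch2 to Notch1 TPM was 31.8, 33.7 and 37.1 in KO libraries and 27.6, 29.1 and 26.6 in WT libraries.

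Notch4, a receptor best known from endothelium, was low in both genotypes. Notch4 (chr17:34564295-34588543, plus strand) had 28, 31 and 52 counts in KO libraries, or 0.398, 0.407 and 0.660 TPM, against 16, 30 and 27 counts in WT libraries, or 0.234, 0.359 and 0.351 TPM. KO libraries lay above WT libraries, KO replicate 3 well above the rest. The log2 fold change of 0.59 (SE 0.27) missed the threshold (edgeR adjusted p = 0.0544). Without KO replicate 1 it was called (log2 0.71, edgeR adjusted p = 0.0385), likewise without KO replicate 2 (log2 0.70, edgeR adjusted p = 0.0397), and without KO replicate 3 it was 0.29 (edgeR adjusted p = 0.446). Of the 7 endothelial markers, Emcn had 0 counts, Vwf was at 1.27 CPM in KO and 0.284 CPM in WT and the other 5 averaged under 0.4 CPM in both, and their part in the Notch4 values was not tested. In these bulk libraries, the share of cells with a transcript and the amount of transcript per cell cannot be told apart.

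Notch3, the receptor of mural cells, was nearly without counts in KO. Notch3 (chr17:32120893-32166852, minus strand) had 0, 0 and 1 counts in KO libraries and 7, 8 and 5 counts in WT libraries, which was too few for the count filter. All KO libraries lay below all WT libraries. The ratio of counts scaled to library size was 0.0497 (95% interval 0.00120 to 0.311, exact binomial), and the two-sided exact permutation test gave p = 0.1, the smallest that 3 against 3 libraries allow. With no count filter Notch3 was called lower (edgeR adjusted p = 0.00127). Among the 7 mural markers, Kcnj8 and Abcc9 had 0 counts, while Des was lower (0.429 CPM in KO, 1.73 CPM in WT) and Cspg4 higher in KO (1.83 CPM in KO, 0.359 CPM in WT). Rgs5 had 2, 3 and 0 counts in KO libraries and 5, 6 and 8 counts in WT libraries, all KO libraries below all WT libraries, and Myh11 and Cnn1 averaged under 0.4 CPM in both genotypes. The part of these markers in the Notch3 values was not tested.

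Jag1 was the main canonical ligand and was lower in KO. Jag1 (chr2:137081451-137116520, minus strand, 26 exons), which encodes the ligand Jagged 1, had 267, 279 and 317 counts in KO libraries, or 4.56, 4.40 and 4.84 TPM, against 421, 577 and 485 counts in WT libraries, or 7.41, 8.30 and 7.58 TPM. No KO library reached the lowest WT library. The fall was 1.74-fold (log2 −0.80, SE 0.08, edgeR adjusted p = 2.16e-14). Jag1 thus lay 0.56 below the median of chromosome 2 on the log2 scale, where 58.4% of tested genes were called lower. Its interval of 1.96 SE, from −0.95 to −0.64, covers the spread between libraries, not the spread of genes on the chromosome. The part of the chromosome in the Jag1 values was not tested.

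Jag2, the second Jagged ligand, had few counts and was higher in KO libraries. Jag2 (chr12:112908590-112929495, minus strand) had 5, 9 and 13 counts in KO libraries and 3, 4 and 2 counts in WT libraries. All KO libraries lay above all WT libraries. The ratio of scaled counts was 2.98 (95% interval 1.36 to 7.21, exact binomial, counting error only), and the exact permutation test again gave p = 0.1. It did not pass the count filter, and without a filter it was called higher at an edgeR adjusted p of 0.0479. The nearest upstream gene on the same strand, Nudt14, ended 5.24 kb away and was higher in KO (log2 0.43, SE 0.18, edgeR adjusted p = 0.0388), and chromosome 12 had a median of 0.19 (447 tested genes). The part of either in the Jag2 values was not tested. For the other 9 members the nearest upstream gene on the same strand was at least 16.9 kb away, and no member shared exon bases with another listed gene.

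The Delta-like ligands were close to absent. Dll1 had 2 counts in KO and 1 in WT, Dll3 3 counts in KO and 7 in WT, and Dll4 0 counts in KO and 1 in WT. Jag1 therefore made up 93.6% to 96.6% of the summed TPM of the 5 canonical ligand genes in KO and 96.5% to 99.1% in WT. The ratio of Notch2 to Jag1 TPM was 11.9, 11.97 and 10.8 in KO libraries and 5.77, 5.25 and 5.47 in WT libraries, with no overlap between the genotypes.

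Among the targets, Hey1 had the largest difference of the tested members. Hey1 (chr3:8663359-8667038, minus strand, 5 exons), which encodes a repressor of the hairy-related family, had 5, 2 and 5 counts in KO libraries, or 0.213, 0.0786 and 0.190 TPM, against 41, 41 and 39 counts in WT libraries, or 1.80, 1.47 and 1.52 TPM. The genotypes were far apart, with the highest KO library well under the lowest WT library. The fall was 9.96-fold (log2 −3.32, SE 0.38, edgeR adjusted p = 1.20e-11), and the ratio of scaled counts was 0.0986 (95% interval 0.0495 to 0.179, exact binomial). Hey1 lies on chromosome 3, whose tested genes had a median of 0.30 in the other direction. Tested genes whose CPM averaged 1 or more over the 6 libraries were searched for patterns like that of Hey1. Hey1 itself averaged under 1 CPM over the 6 libraries (0.150 CPM in KO, 1.52 CPM in WT). The most alike were the growth factor receptor gene Egfr (root-mean-square difference 0.168 on the log2 scale, log2 fold change −2.78), the interleukin receptor accessory protein-like gene Il1rapl1 (0.183, log2 fold change −2.94) and the guidance ligand gene Slit3 (0.184, log2 fold change −3.15). Their fold changes follow from the choice by likeness and are no separate result.

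Hes1 was only a little lower in KO, and its call was not stable. Hes1 (chr16:30065357-30067796, plus strand, 4 exons) had 346, 313 and 304 counts in KO libraries, or 22.4, 18.7 and 17.6 TPM, against 315, 423 and 373 counts in WT libraries, or 21.0, 23.0 and 22.1 TPM. KO replicate 1 lay within the WT range and the other KO libraries below it. The log2 fold change was −0.22 (SE 0.08, edgeR adjusted p = 0.0184), on a chromosome with a median of −0.063. The call was lost without KO replicate 2 (log2 −0.20, edgeR adjusted p = 0.0684), without KO replicate 3 (log2 −0.15, edgeR adjusted p = 0.152), without WT replicate 2 (log2 −0.20, edgeR adjusted p = 0.0600) and with DESeq2 (log2 −0.22, adjusted p = 0.0647).

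Hey2 and Heyl, the other HEY genes, had 0 counts in all 6 libraries. A count of 0 allows up to 3 counts per library, or up to 0.107 to 0.119 CPM in KO and 0.102 to 0.126 CPM in WT, for counting error only. Within the summed TPM of the 4 HES and HEY targets, Hey1 took 0.419% to 1.07% in KO and 5.996% to 7.89% in WT, and Hes1 the rest.

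**Figure D3:**
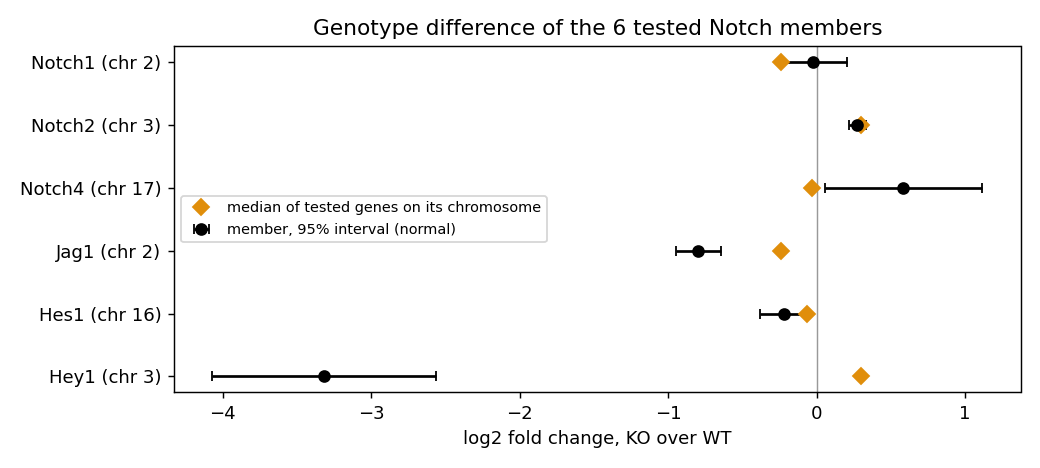
Log2 fold change, KO over WT, of the 6 tested Notch members (black, bars 1.96 SE either side) with the median of all tested genes on the same chromosome (orange). Notch2 (0.28) lies on the median of chromosome 3 (0.30), whereas Hey1 (−3.32), on the same chromosome, and Jag1 (−0.80), on chromosome 2 (−0.24), lie below theirs. The spread of genes around each median is not shown.

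Other genes of the pathway moved in both directions. Of 76 listed genes, 61 were tested, 23 were higher in KO (37.7%) and 16 lower (26.2%), against 30.3% and 31.2% of all tested genes, with a median log2 change of 0.03 against 0.004. Of the 23 higher genes, 9 were from chromosomes 3, 5 and 12, where most tested genes were higher. Off those chromosomes and chromosome 2, 14 of 44 pathway genes were higher and 14 lower, against 25.9% and 32.3% of all tested genes there.

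The ligand-like genes had the widest spread only through Mfap5, which rests on 1 count in KO. The other tested ones ran from log2 −0.94 (Dner) to 1.12 (Dlk1). Ligand endocytosis and receptor turnover genes ran wider, from −0.70 (Dtx3l) to 2.20 (Neurl1a). Dlk1, which lies in an imprinted cluster on chromosome 12, had 904, 908 and 945 TPM in KO libraries and 427, 412 and 398 TPM in WT libraries (2.17-fold, SE 0.03 on the log2 scale, edgeR adjusted p = 1.35e-43). Dlk2, its paralogue, rose 1.502-fold to 30.8 ± 1.35 TPM in KO, against 20.01 ± 1.61 TPM in WT (edgeR adjusted p = 2.14e-10). Mfap5, a microfibril protein reported to bind Jagged 1 and Notch1, had 0, 0 and 1 counts in KO libraries and 30, 33 and 22 counts in WT libraries, a ratio of 0.0117 (95% interval 0.000293 to 0.0669). The ratio of Dlk1 to Jag1 TPM was 198.4, 206.4 and 195.4 in KO libraries and 57.6, 49.6 and 52.6 in WT libraries. Dner was called lower (log2 −0.94, edgeR adjusted p = 0.0475), a call that held in 4 of 12 alternatives. Mfap5 and Dner, both counted among the lower genes, passed the count filter only through their WT libraries.

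Of the 10 genes of receptor cleavage, 4 were called higher, 0 lower and 6 were not called, against 30.3% higher and 31.2% lower over all tested genes. The gamma-secretase subunit gene Aph1a rose 1.41-fold (39.4 ± 1.51 TPM in KO, 27.2 ± 1.36 TPM in WT, edgeR adjusted p = 3.01e-14) and the sheddase genes Adam17 and Adam10 rose 1.25-fold and 1.20-fold. Ncstn and Psenen, which encode other gamma-secretase subunits, were not called (log2 0.08, edgeR adjusted p = 0.0599, and log2 0.06, edgeR adjusted p = 0.415). Aph1a lies on chromosome 3 and Adam17 on chromosome 12, both higher in general. Aph1c, the remaining gene called higher, passed the count filter only through its KO libraries. It had 21, 28 and 27 counts in KO libraries and 7, 15 and 16 counts in WT libraries. Its call held in 11 of 12 alternatives.

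Glycosylation of the receptors sets which ligands they answer to. Lfng, the Fringe glycosyltransferase gene with the lowest level of the tested pair, had 1.93, 2.39 and 2.42 TPM in KO libraries and 4.61, 3.84 and 3.19 TPM in WT libraries, and fell by 0.82 on the log2 scale (SE 0.17, edgeR adjusted p = 3.49e-05), although chromosome 5, where it lies, was higher in general (median 0.19). Rfng was not called (log2 −0.07, edgeR adjusted p = 0.366), and Mfng had 1 count in KO and 0 in WT. Poglut1, the O-glucosyltransferase gene, rose 1.15-fold, and the xylosyltransferase gene Gxylt1 fell by 0.17 on the log2 scale.

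In ligand endocytosis and receptor turnover, 5 of 13 tested genes rose (38.5%, against 30.3% of all tested genes) and 2 fell (15.4%, against 31.2%). The ubiquitin ligase gene Neurl1a rose 4.595-fold (SE 0.23 on the log2 scale, edgeR adjusted p = 1.46e-13), with 1.91, 1.59 and 1.82 TPM in KO libraries and 0.504, 0.340 and 0.292 TPM in WT libraries. Mib2 and Dtx2 each rose 1.29-fold, and the ubiquitin ligase genes Dtx3l and Itch fell by 0.70 and 0.24 on the log2 scale. Mib1 and Fbxw7 were the remaining genes called higher, calls that each held in 12 of 13 alternatives. Dtx2 lies on chromosome 5 and Fbxw7 on chromosome 3, both higher in general. Numb, which encodes an inhibitor of Notch, was not called (log2 0.02, edgeR adjusted p = 0.745).

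In the nuclear complex, Rbpj had 115, 111 and 112 TPM in KO libraries and 80.5, 84.5 and 84.6 TPM in WT libraries, with no overlap. It rose 1.32-fold (SE 0.03 on the log2 scale, edgeR adjusted p = 2.42e-19), on chromosome 5 with its median of 0.19. Maml3, a Mastermind coactivator gene on chromosome 3, rose 1.56-fold (11.7 ± 0.57 TPM in KO, 7.30 ± 0.23 TPM in WT, edgeR adjusted p = 4.56e-15), while Maml1 and Maml2 were not called. Ep300 (log2 0.07) and Kat2b (log2 −0.18), histone acetyltransferase genes, were called higher and lower, calls that held in 6 and 8 of 13 alternatives.

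Of 11 corepressor genes, 5 were called higher and 5 lower, where 61.4% of all tested genes were called, and the call of Kdm5a held in 5 of 13 alternatives. Ctbp1, on chromosome 5, and Tle1 rose 1.25-fold and 1.22-fold. Tle2, a Groucho-type corepressor gene, fell by 1.08 on the log2 scale (2.77 ± 0.61 TPM in KO, 5.69 ± 1.21 TPM in WT, edgeR adjusted p = 4.02e-09), and Tle4 and Hdac1 fell by 0.42 and 0.25.

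Of 16 other HES-family and Notch-induced genes, 9 were tested, 3 rose (33.3%, against 30.3% of all tested genes) and 4 fell (44.4%, against 31.2%). The cell-cycle genes Cdkn1a and Ccnd1 rose 2.26-fold and 1.31-fold, and Myc rose 1.16-fold, all 3 known to answer to many other pathways. Hes6, a HES-family gene known for opposing HES1, had 7.94, 8.76 and 8.54 TPM in KO libraries and 10.7, 12.4 and 12.2 TPM in WT libraries (log2 −0.53, SE 0.12, edgeR adjusted p = 8.79e-05). The related repressor genes Bhlhe41 and Bhlhe40 fell by 0.55 and 0.42 on the log2 scale, Bhlhe40 with 37.7 ± 0.70 TPM in KO and 48.9 ± 2.58 TPM in WT. Nrarp, a direct Notch target, had 0 counts in all 6 libraries, and Hes5 had 0 counts in KO and 1 in WT.

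**Figure D4:**
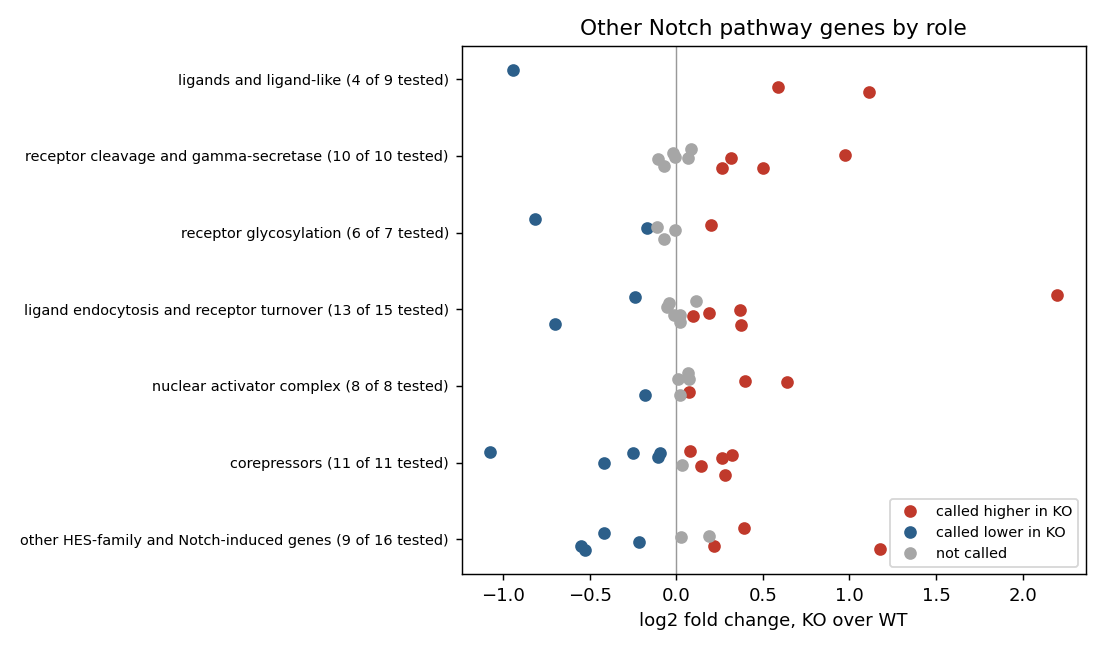
Log2 fold change, KO over WT, of the other tested Notch pathway genes by role (red, called higher in KO; blue, called lower; grey, not called; vertical scatter within a row has no meaning). Mfap5, with 1 count in KO, is not drawn. Most genes lie within 1 of 0, and Neurl1a (2.20), Cdkn1a (1.18), Dlk1 (1.12) and Tle2 (−1.08) lie outside.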

How the data were processed

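Per the labels' protocols, stranded libraries were prepared from rRNA-depleted total RNA of 3T3-L1 cells. Raw counts for each gene were deposited by the authors, with exon coordinates, strand and exon length. The submitters' processing notes name STAR 2.6.1d, featureCounts 1.6.3 and the builds mm10 and GRCm38, without assigning them to a file. How strand and reads with several alignments were handled in counting is not stated. Counts per downstream-of-gene region were not used, since their rows carry no gene name.

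Groups and replicate numbers came from the sample titles, which call the samples biological replicates. How separate the cultures were is not stated, so p-values cover the spread among these samples only, which may be technical. Libraries of one genotype differed by more than sampling noise (chi-square per gene 2.04 to 6.35), and each was counted as 1 replicate. The samples that share a number did not deviate together.

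Genotypes were compared on the whole table with edgeR 4.0.16 in R 4.3.3 (quasi-likelihood F test, robust, TMM scaling, filterByExpr at its defaults, minimum count 10 and minimum total 15), two-sided, with Benjamini-Hochberg adjustment over the 12947 tested genes and a threshold of 0.05. Standard errors were taken as |log2 fold change|/√F, and intervals as 1.96 SE either side. CPM used the total count, and TPM the deposited exon length. Genes with few counts were given ratios with exact 95% binomial intervals, which cover counting error only. The fits were tested on simulated data in which a small part of the genes changed, equally often up and down. In the real data most tested genes were called, so that test does not check the scaling here.

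The members and lists were chosen with earlier results of these data known. Named were all 10 members, Ube3d, the neighbour genes, the 3 genes most like the called member with the largest change (log2 CPM with a prior count of 2), and up to 3 called genes per direction and role with the smallest adjusted p, of which 1 is not reported here. Dll1, Dll3, Dll4, Ncstn, Psenen, Rfng, Mfng, Numb, Maml1, Maml2, Kdm5a, Nrarp, Hes5 and the markers Vwf, Emcn, Des, Cspg4, Kcnj8, Abcc9, Rgs5, Myh11 and Cnn1 were named after their values were seen. The same holds for Aph1c, Mib1 and Fbxw7.
The macrophage, epithelial, Schwann and skeletal muscle marker lists summed to 6.47 to 7.31, 0.250 to 0.625, 7.57 to 7.88 and 0 to 0.0367 CPM in KO and to 4.65 to 6.23, 0.295 to 0.510, 3.91 to 4.46 and 0 to 0.112 CPM in WT. Alternatives were RLE scaling, no count filter, 1 CPM in 3 libraries, DESeq2 1.42.0, limma-voom (limma 3.58.1), a replicate block, leaving out Rn45s, and leaving out each library.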

Additional observations from a re-analysis of the deposited data

How the results depend on the processing

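Each tested Notch member was refitted under 13 alternatives. Notch2 (log2 0.25 to 0.29), Jag1 (−0.84 to −0.76) and Hey1 (−3.54 to −2.997) kept their direction and call in all 13, and Notch1 was not called in any (−0.08 to 0.04). With no count filter, 2 members were called higher, the added one being Jag2 (log2 1.51), and Notch3 was called lower (log2 −3.92). Hes1 lost its call with DESeq2 (log2 −0.22). Leaving out each library in turn gave between 1 and 2 members higher and between 2 and 3 lower, log2 changes of 0.29 to 0.71 for Notch4, called without KO replicate 1 or 2, and of −0.32 to −0.15 for Hes1. The cause was not tested. The pathway genes called ranged from 20 to 24 higher and from 14 to 17 lower. No paired design is stated: samples with the same replicate number had correlations of −0.029, −0.033 and −0.032 of their deviations from the genotype means over 12947 genes, and none correlated best with its own number. With the replicate number as a block, 7816 genes were called, against 7955 without it, and no member's call changed. Depth limits what can be said of Notch3, Notch4, Jag2, Hey1, Hey2 and Heyl, whose counts were at most 52 per library, and the size of the Hey1 fall rests on 12 counts in KO.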
